A study of Homo sapiens with 6 samples.

Results

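Platelet-derived growth factors (PDGFs) are secreted dimers that bind receptor tyrosine kinases on the cell surface and drive growth, migration and matrix production in connective tissue cells. PDGFA, PDGFB, PDGFC and PDGFD encode the ligand chains, PDGFRA and PDGFRB encode the receptors alpha and beta, and PDGFRL encodes a receptor-like protein that resembles part of the receptors and lacks a kinase. The 7 genes with these symbols were taken from the 23368 gene symbols of an RNA-seq count table. They were chosen by family and by the measured counts of PDGFRB in siL1 and siControl. PDGFRB was already known to be low in control cells, though above the floor used below, and higher with the siRNA siL1. All values of siL1 against the control are therefore given for the 7 genes as a description, without a test, and PDGFRB has no test in any comparison.

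The libraries came from MDA-MB231, a triple-negative breast cancer cell line, grown in DMEM with fetal calf serum and transfected with siRNA using a lipid reagent. The groups were siL1 and siL2, which are different siRNAs against LSD1, and siControl, a control siRNA, with 2 libraries each. LSD1 is the histone lysine demethylase encoded by KDM1A. The labels give neither the time after transfection nor whether the replicates were separate cultures, and a p-value here reflects the spread among these 6 libraries alone, which may be technical.

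The 6 libraries held 22047738 to 26765079 counts, and the floor used here, 3 counts, was 0.112 to 0.136 CPM, where CPM is a count scaled to a fixed library total of 1000000. KDM1A had 27.7 and 28.1 CPM with siL1, 17.4 and 18.1 CPM with siL2, and 158 and 165 CPM in siControl, so the targeted gene was low in all 4 libraries labelled as knockdown. Fold changes are on the log2 scale from edgeR's quasi-likelihood fit over all 13322 genes that passed a filter on low counts, and adjusted p-values are Benjamini-Hochberg over those genes. Of the 7 PDGF genes, 6 passed that filter and PDGFRA did not. In bulk RNA, a change in the number of cells that carry a transcript and a change in RNA per cell cannot be told apart.

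PDGFRB, the receptor for PDGF-BB and PDGF-DD dimers and a marker of pericytes and fibroblasts, showed the largest difference of the 6 genes with either siRNA. It was counted 152 and 195 times in the siL1 libraries, 102 and 90 times in the siL2 libraries, and 17 and 21 times in the siControl libraries. Exact Poisson intervals (95%, counting error only) ran from 128.8 to 178.2 for the lower siL1 library, from 72.37 to 110.6 for the lower siL2 library, and from 13 to 32.1 for the higher siControl library. These counts corresponded to 6.47 and 7.91 CPM with siL1, 3.81 and 3.65 CPM with siL2, and 0.771 and 0.889 CPM in siControl. The groups did not overlap, and the siL2 libraries lay between the others.

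The mean level of PDGFRB was 7.19 ± 1.02 CPM with siL1, 3.73 ± 0.112 CPM with siL2 and 0.830 ± 0.0833 CPM in siControl (SD, n = 2 each). The log2 fold change over siControl was 3.11 (SE 0.208) for siL1 and 2.16 (SE 0.231) for siL2. Leaving out any library or changing the scaling, filter or model kept these between 2.95 and 3.25 for siL1 and between 2.06 and 2.26 for siL2. In the authors' deposited table the linear fold changes were 8.72 with siL1 and 4.48 with siL2. The siL2 libraries were lower than the siL1 libraries by a log2 difference of -0.95 (SE 0.151).

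PDGFRA, the receptor that binds PDGF-AA and PDGF-CC, was not detectable above the floor at this depth. It had 0 and 1 counts with siL1, 2 and 0 with siL2, and 2 and 0 in siControl. All 6 values were at or under the floor of 3 counts, so no fold change is given. Of the kinase receptors, PDGFRB was thus the one with a level that could be compared between groups.

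The promoters of both receptors are shown because these genes stood far apart in level, and that of PDGFA because it was the most abundant ligand with a listed promoter. Each is the RefSeq sequence from 250 bases before to 50 bases after the start of the gene on GRCh38.p14, read on the strand of the gene, with matched motif letters in capitals.
PDGFRB, chr5:150155796-150156095, minus strand: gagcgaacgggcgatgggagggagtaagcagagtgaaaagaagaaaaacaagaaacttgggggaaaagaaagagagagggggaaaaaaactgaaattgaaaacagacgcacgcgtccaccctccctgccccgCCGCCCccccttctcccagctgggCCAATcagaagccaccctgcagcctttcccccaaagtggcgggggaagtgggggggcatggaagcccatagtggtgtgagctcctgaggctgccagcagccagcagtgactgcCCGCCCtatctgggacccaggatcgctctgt
PDGFRA, chr4:54229043-54229342, plus strand: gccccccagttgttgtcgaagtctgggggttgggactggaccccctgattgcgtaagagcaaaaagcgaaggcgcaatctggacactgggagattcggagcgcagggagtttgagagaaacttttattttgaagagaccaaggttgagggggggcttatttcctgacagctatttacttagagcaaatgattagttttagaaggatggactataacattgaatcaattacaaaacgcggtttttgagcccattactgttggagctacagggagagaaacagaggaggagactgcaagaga
PDGFA, chr7:520177-520476, minus strand: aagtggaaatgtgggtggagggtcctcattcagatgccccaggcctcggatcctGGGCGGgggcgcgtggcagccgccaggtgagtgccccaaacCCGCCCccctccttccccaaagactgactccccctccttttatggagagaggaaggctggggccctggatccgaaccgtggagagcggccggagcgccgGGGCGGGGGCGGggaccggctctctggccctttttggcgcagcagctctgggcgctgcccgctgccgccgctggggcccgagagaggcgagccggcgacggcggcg

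Motifs were searched on both strands, and overlapping matches were kept. The CCAAT box was searched by the letters of its name. The GC box was searched as GGGCGG. The letters of the TATA box were TATAAA. For the cAMP response element the letters were TGACGTCA. The E box was searched as CACGTG. The PDGFRB promoter held 1 CCAAT match starting at base -94 from the start and 2 GC box matches at bases -118 and 20. The PDGFRA promoter held none of these letters, and its GC content was 47%, against 59.3% for PDGFRB. The PDGFA promoter held 4 GC box matches, none overlapping, and had a GC content of 71.7% and 27 CpG dinucleotides. PDGFD, the only other member with a listed promoter, had 1 GC box match and 26 CpG dinucleotides. Among all 27305 listed promoters, CCAAT was found in 35.7%, the GC box in 44.6%, TATAAA in 12%, the cAMP element in 1.98% and the E box in 7.43%, and the median GC content was 58.3%. A match describes the letters of this window and not a binding site.

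PDGFRL, the receptor-like gene without a kinase, was low in all libraries, and its siL1 and siL2 levels lay on opposite sides of the control. It had 3.10 and 2.39 CPM with siL1, 1.01 and 1.22 CPM with siL2, and 2.27 and 1.65 CPM in siControl. The siL1 libraries lay just above the siControl libraries and the siL2 libraries below them, without overlap in either case. The log2 fold change was 0.50 (SE 0.226) for siL1, a value that was 0.27 without siControl replicate 2 and 0.30 without siL1 replicate 1. It was -0.82 for siL2 (SE 0.267, adjusted p = 0.0241, edgeR, lower in both libraries).

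The call of PDGFRL with siL2 was not stable. Its adjusted p was 0.105 with DESeq2, 0.193 without siControl replicate 1 and 0.129 without siL2 replicate 1. The difference of siL2 from siL1 was larger, at a log2 difference of -1.31 (SE 0.247, adjusted p = 0.000807), and passed under every alternative, with adjusted p up to 0.0115. That difference includes the siL1 values, which were not tested against siControl because of the choice of genes, so it is not independent of that choice. In the annotation PDGFRL overlaps MTUS1 on the opposite strand, and reads of the 2 genes cannot be told apart without strand. MTUS1 had 4.89 and 4.22 CPM with siL1, 3.92 and 4.06 CPM with siL2, and 5.81 and 4.95 CPM in siControl.

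**Figure D1:**
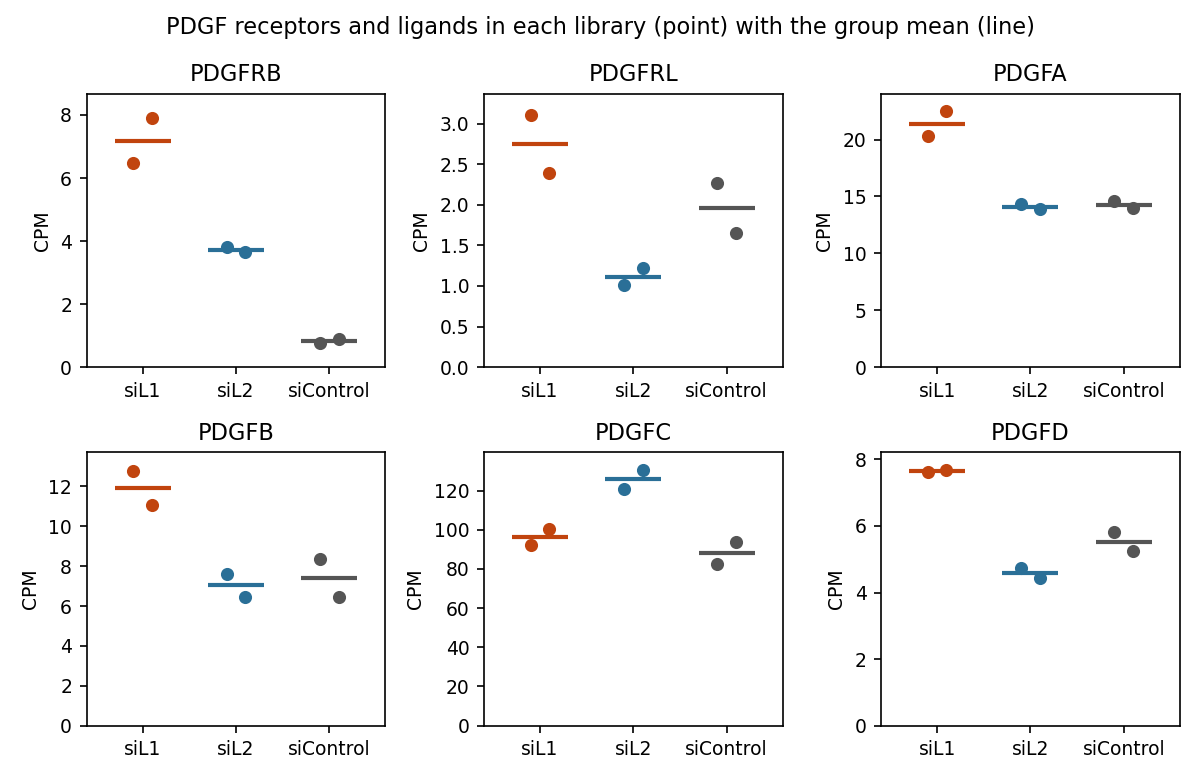
CPM (vertical axes, from 0, with a scale of their own) of the 6 PDGF genes above the count filter in each library, with siL1, siL2 and siControl from left to right. Points are libraries and lines are group means of 2. PDGFRB stands at 6.47 and 7.91 CPM with siL1, 3.81 and 3.65 CPM with siL2, and 0.771 and 0.889 CPM in siControl, while PDGFC, alone of the 6 genes, has its highest mean with siL2.

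Among the ligands, PDGFA, PDGFB and PDGFD were higher with siL1 and not with siL2, while PDGFC was the ligand that rose with siL2. PDGFA, the chain that forms PDGF-AA, had 20.3 and 22.5 CPM with siL1, 14.3 and 13.9 CPM with siL2, and 14.6 and 14.0 CPM in siControl. Both siL1 libraries lay above all others, and the siL2 and siControl libraries overlapped. The log2 fold change of PDGFA was 0.59 (SE 0.0893) for siL1. For siL2 it was -0.02 (SE 0.0932, adjusted p = 0.882). The direct difference of siL2 from siL1 was -0.61 (SE 0.088, adjusted p = 0.000103, lower in both libraries).

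PDGFB, the chain of the dimer that binds both receptors, had 12.8 and 11.1 CPM with siL1, 7.62 and 6.45 CPM with siL2, and 8.35 and 6.48 CPM in siControl. The siL1 libraries again lay above the rest, and the other groups overlapped. Its mean was 11.9 ± 1.19 CPM with siL1, 7.04 ± 0.826 CPM with siL2 and 7.41 ± 1.32 CPM in siControl (SD, n = 2 each). The log2 fold change was 0.69 (SE 0.139) for siL1. For siL2 it was -0.07 (SE 0.149, adjusted p = 0.725), and siL2 was lower than siL1 by a log2 difference of -0.76 (SE 0.138, adjusted p = 0.000577). Leaving out the control libraries in turn, among the alternatives, moved the siL1 value between 0.51 and 0.88.

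PDGFC, a chain secreted in a latent form that proteases must cut, was the most abundant member per length of exon in every library. It had 92.3 and 101 CPM with siL1, 121 and 131 CPM with siL2, and 82.7 and 93.8 CPM in siControl. The siL1 and siControl libraries overlapped, and both siL2 libraries lay above all others. With siL2 the gene rose by a log2 fold change of 0.51 (SE 0.0656, adjusted p = 4.21e-05, higher in both libraries). With siL1 its log2 fold change was 0.13 (SE 0.0668), which was 0.04 without siControl replicate 1, 0.22 without siControl replicate 2 and 0.06 without siL1 replicate 2. siL2 exceeded siL1 by 0.37 (SE 0.0649, adjusted p = 0.000438).

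PDGFD, whose product is also latent until cut and binds the beta receptor, had 7.61 and 7.67 CPM with siL1, 4.74 and 4.42 CPM with siL2, and 5.81 and 5.25 CPM in siControl. The siL1 libraries were the highest and the siL2 libraries the lowest, with no overlap between groups. The log2 fold change was 0.47 (SE 0.127) for siL1. With siL2 it was -0.27 (SE 0.137, adjusted p = 0.125), which missed the threshold. The difference between the siRNAs passed it, at -0.74 (SE 0.129, adjusted p = 0.000429).

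In siL1 against siControl, 5 of the 6 genes had both siL1 libraries above both siControl libraries, PDGFC being the exception. Such a separation upwards was seen in 35.8% of all genes tested, and nothing is read from the count, since this contrast was used in the choice. For siL2 against siControl, 5 genes were tested, of which 1 passed upwards (PDGFC) and 1 downwards (PDGFRL), where 22.6% of all genes passed upwards and 23.3% downwards. For siL2 against siL1, 1 of the 5 passed upwards (PDGFC) and 4 downwards (PDGFA, PDGFB, PDGFD and PDGFRL), beside 23.2% upwards and 23.7% downwards among all genes. Both siRNA comparisons share the siControl libraries. The comparison of siL2 with siL1 shares the siL1 libraries with the contrast used in the choice. Where siL2 was near siControl, as for PDGFA and PDGFB, that comparison largely restates the siL1 values that were not tested.

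**Figure D2:**
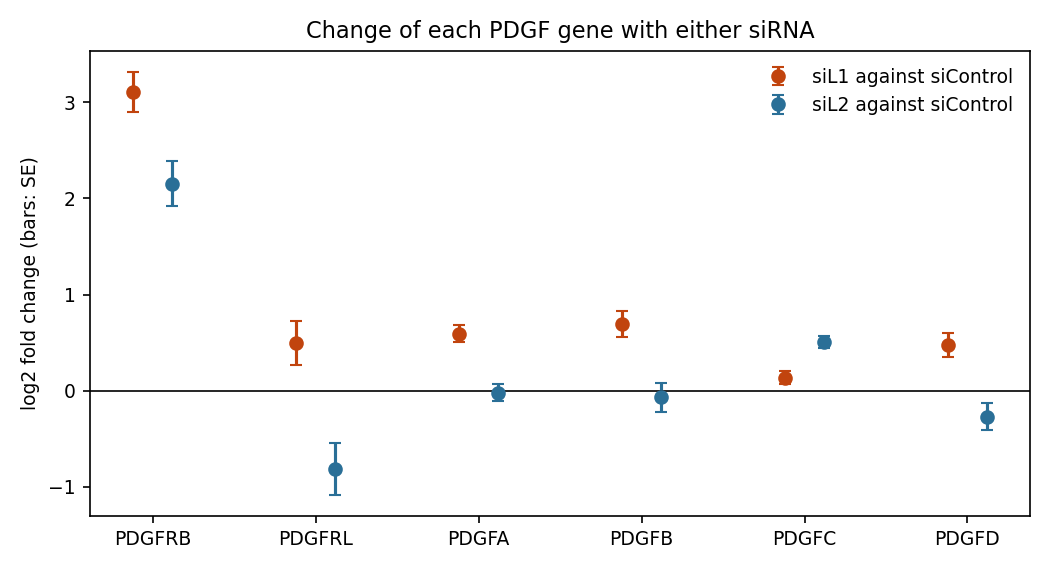
Log2 fold change over siControl (vertical axis) of the 6 PDGF genes for siL1 and siL2, with bars of 1 standard error from the edgeR fit. PDGFRB lies at 3.11 with siL1 and 2.16 with siL2, and PDGFRL is 0.50 with siL1 and -0.82 with siL2.

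Levels of the PDGF genes were compared with each other only per length of exon. The unit was reads per kilobase of the merged exons in GENCODE 29, scaled as CPM (RPKM). Sums and ranks of marker genes below are in CPM, without regard to length. On this scale the order in siControl was PDGFC (15.8 ± 1.39), PDGFA (3.44 ± 0.101), PDGFB (1.97 ± 0.351), PDGFD (1.296 ± 0.0923), PDGFRL (0.813 ± 0.181) and PDGFRB (0.116 ± 0.0117 RPKM; SD, n = 2 each). No neighbours in that order overlapped between their libraries in siControl. With siL1, PDGFRB reached 0.906 and 1.11 RPKM and overlapped PDGFRL at 1.29 and 0.994 RPKM. With siL2, PDGFRB had 0.534 and 0.512 RPKM, and PDGFRL had 0.419 and 0.506 RPKM, with both PDGFRB libraries above both PDGFRL libraries by a small margin that was not tested. PDGFRB thus stayed below the 4 ligands per length in every group.

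**Figure D3:**
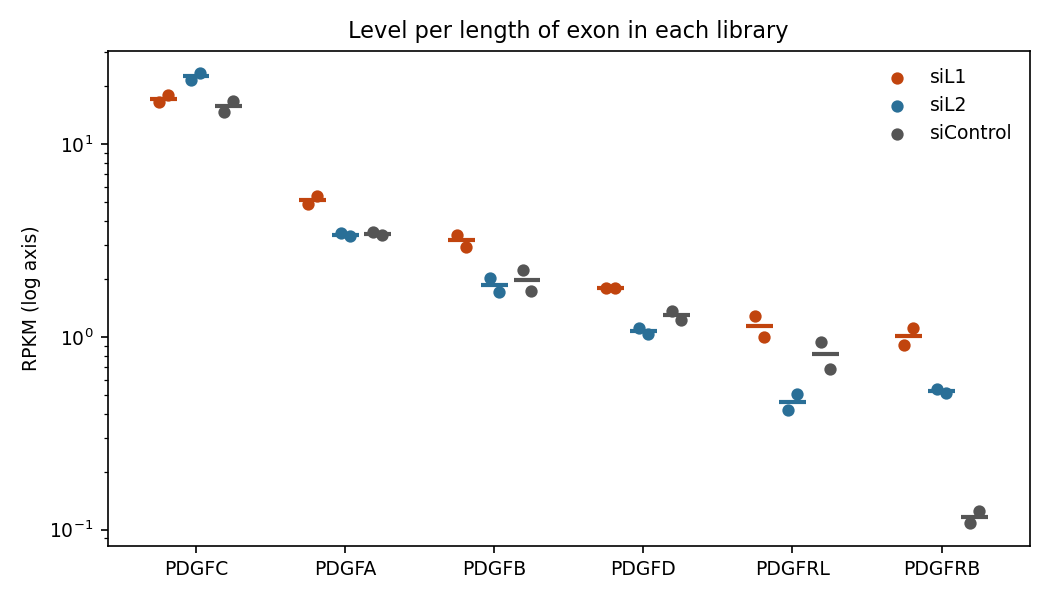
RPKM (vertical log axis) of the 6 PDGF genes in each library, genes ordered by their siControl mean, with siL1, siL2 and siControl from left to right within a gene. PDGFC averages 17.2 RPKM with siL1, 22.5 with siL2 and 15.8 in siControl, and PDGFRB averages 1.01 with siL1, 0.523 with siL2 and 0.116 in siControl.

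The summed level of the 4 ligands was 26.6 and 28.1 RPKM with siL1, 28.2 and 29.5 RPKM with siL2, and 21.9 and 23.1 RPKM in siControl. All knockdown libraries were above both control libraries. PDGFC made up 62.1% and 63.9% of that sum with siL1, 76.7% and 79.3% with siL2, and 67.6% and 72.6% in siControl. PDGFA made up 18.4% and 19.2% with siL1, 12.2% and 11.4% with siL2, and 16.0% and 14.6% in siControl. The PDGFC share was lowest with siL1 and highest with siL2, without overlap between the 3 groups. No test was run on these sums and shares, which include siL1 against siControl.

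**Figure D4:**
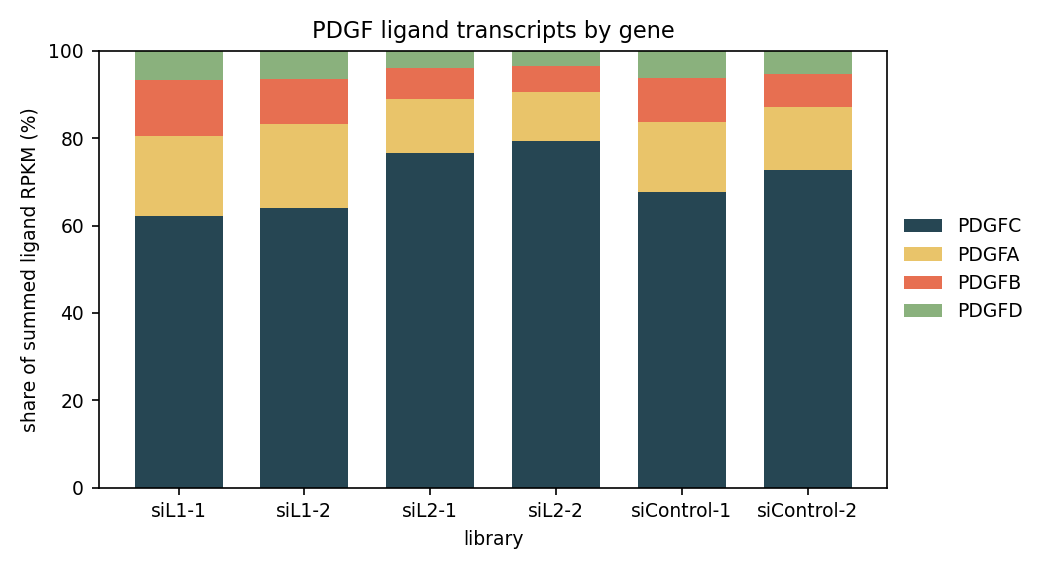
Share of the summed RPKM of the 4 ligand genes taken by each gene (vertical axis, percent) in each library. PDGFC takes 62.1% and 63.9% in the siL1 libraries, 76.7% and 79.3% in the siL2 libraries, and 67.6% and 72.6% in the siControl libraries.

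Short sequence words in the 3' untranslated regions are shown because an earlier analysis of the same libraries had linked them to rises and falls with these siRNAs, so they are not independent of the data. Of all tested genes with such a region of at least 50 bases, 32.3% held TACATTT or ACATTTA, against 42.8% of those called higher with siL1 and 44.2% of those called higher with siL2. Of those called lower, 25.9% with siL1 and 28.1% with siL2 held them. The word GTTACAA was in 8.6% of all, in 10.2% and 6.49% of those called higher with siL1 and siL2, and in 7.82% and 15.3% of those called lower with siL1 and siL2. The word ACAGAGC was in 15.6% of all, in 15.2% and 17.4% of those called higher with siL1 and siL2, and in 17.9% and 15.9% of those called lower with siL1 and siL2. Only the strand of the transcript was searched. Among the tested PDGF genes, 4 of 6 held TACATTT or ACATTTA, and none held the other words. The matches stand in capitals, with the 10 bases on either side, from GENCODE 29 transcripts (GRCh38).
PDGFRB: acgttaactcACATTTAtacagcagaa
PDGFA: ctcttggatgACATTTAcaccgataac
PDGFC: tttcattgtgTACATTTttatattctc
PDGFD, the first of 2: aacagagaacTACATTTttcttattgc
PDGFD, the second of 2: ccgtacaaatTACATTTcaaaacaaac

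The words in PDGFRB and PDGFA overlap in 6 of their 7 letters with those in PDGFC and PDGFD. The shares above were for calls against siControl. In siL1 against siControl, all 6 genes had a positive log2 fold change, with or without a word. In siL2 against siControl it was 2.16 for PDGFRB, 0.51 for PDGFC, -0.02 for PDGFA and -0.27 for PDGFD. For PDGFB and PDGFRL, which held neither word, it was -0.07 and -0.82. In siL2 against siL1, PDGFRB, PDGFA and PDGFD, which held a word, and PDGFB and PDGFRL were lower. PDGFC, which held TACATTT, was higher. The untranslated regions of the 4 genes with a match were 1306 to 2636 bases long, and those of PDGFB and PDGFRL 1983 and 332 bases, beside a median of 1172 bases over tested genes. A match is a description of the letters, and its part in any change was not tested.

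The genomic neighbours of the receptors are CSF1R for PDGFRB and KIT for PDGFRA, which are receptor kinases of the same class. CSF1R lies on the same strand 464 bases downstream of PDGFRB in GENCODE 29 (GRCh38). It had 17 and 14 counts with siL1, 10 and 18 with siL2, and 6 and 5 in siControl, so it was also higher but stayed below 1 CPM. Its log2 fold change was 1.40 with siL1 (SE 0.489, adjusted p = 0.0294) and 1.16 with siL2 (SE 0.502, adjusted p = 0.077). The siL1 call ended with DESeq2 (adjusted p = 0.155) and without either siControl library or either siL1 library, at adjusted p from 0.0518 to 0.154. CDX1, the nearest gene upstream of PDGFRB, had 0 counts in all 6 libraries.

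KIT had 0 and 1 counts with siL1, 0 and 2 with siL2, and 0 in both siControl libraries. GSX2, the nearest gene on the other side of PDGFRA, had 3 and 10 counts with siL1, 1 and 2 with siL2, and 0 and 1 in siControl. For the other members, SLC7A2 next to PDGFRL rose with both siRNAs (log2 fold change 0.75 with siL1, adjusted p = 3.2e-07, and 0.23 with siL2, adjusted p = 0.00512), unlike PDGFRL with siL2. PRKAR1B next to PDGFA rose with siL1 (0.19, adjusted p = 0.017) and fell with siL2 (-0.40, adjusted p = 0.000173). Its siL1 call ended with DESeq2 (0.0676) and without siControl replicate 1 (0.0782), siControl replicate 2 (0.0643) or siL1 replicate 1 (0.115). CBX7 next to PDGFB fell with siL1 (-0.59, adjusted p = 0.000449) and rose with siL2 (0.36, adjusted p = 0.00895), while RPL3 on its other side fell with siL2 (-0.18, adjusted p = 0.000629) and had -0.05 with siL1 (adjusted p = 0.199). Next to PDGFC, neither GLRB nor CTSO passed in siL2 against siControl (adjusted p = 0.205 and 0.0725). CASP4 next to PDGFD fell with siL2 (-0.45, adjusted p = 9.57e-06), and DYNC2H1 on its other side fell with siL1 (-0.26, adjusted p = 0.036), a call that ended with DESeq2 (0.113), upper quartile scaling (0.0559), and without siControl replicate 1 (0.254) or siL1 replicate 2 (0.258).

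Around the PDGF genes, 108 genes in 6 lists were described, of which 98 were tested. The lists were set by function with earlier results of these data known, so their counts and shares are not independent of the data. With siL1, 38 rose and 14 fell, so 53.1% passed beside 50.4% of all genes, of which 24.7% passed upwards and 25.7% downwards. With siL2, 26 rose and 20 fell, so 46.9% passed beside 45.8% of all genes. In siL2 against siL1, 20 were higher and 42 lower, so 63.3% passed beside 46.8% of all genes. The median log2 fold change was 0.08 with siL1 (all genes -0.01), 0.004 with siL2 (all genes -0.004), and -0.11 for siL2 against siL1 (all genes 0.0002).

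Sister receptors and their ligands, the KIT, CSF1R, FLT3 and VEGF families, had 9 of 15 members tested. With siL1, 6 rose and 1 fell, and with siL2, 5 rose and 0 fell. The shares that passed were 77.8% with siL1 and 55.6% with siL2, beside 50.4% and 45.8% of all genes. These include low genes. CSF1R, whose unstable siL1 call is given above, averaged 0.646 CPM with siL1. PGF averaged 0.564 CPM with siL1 (adjusted p = 0.0453, edgeR) and 0.656 CPM with siL2 (adjusted p = 0.021). VEGFA, the main angiogenic ligand and a structural relative of the PDGFs, averaged 39.8 ± 4.72 CPM with siL1, 27.0 ± 1.03 CPM with siL2 and 22.1 ± 1.21 CPM in siControl (SD, n = 2 each). It rose by 0.85 with siL1 (adjusted p = 5.69e-06) and by 0.28 with siL2 (adjusted p = 0.0247), the second of which ended without siControl replicate 1 (0.134) or siL2 replicate 2 (0.099). CSF1, the ligand of CSF1R, rose by 1.29 with siL2 (adjusted p = 9.84e-09) and by 0.59 with siL1 (adjusted p = 1.15e-05). KITLG, the ligand of KIT, fell by 0.91 with siL1 (adjusted p = 4.1e-06) and had a log2 fold change of -0.17 with siL2 (adjusted p = 0.117).

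Of 11 tested genes that process or bind PDGF ligands or act as co-receptors, 6 rose and 1 fell with siL1, and 4 rose and 1 fell with siL2. Thus 63.6% passed with siL1 and 45.5% with siL2, beside 50.4% and 45.8% of all genes. In siL2 against siL1, 8 of the 11 were lower and 0 higher, where 23.7% of all genes were lower and 23.2% higher. LRP1, a co-receptor that associates with PDGFRB, averaged 16.2 ± 1.75 CPM with siL1, 9.73 ± 2.40 CPM with siL2 and 5.47 ± 0.607 CPM in siControl (SD, n = 2 each). It rose by 1.57 with siL1 (adjusted p = 4.99e-06) and by 0.84 with siL2 (adjusted p = 0.00139), and siL2 was lower than siL1 by a log2 difference of -0.74 (adjusted p = 0.00104). NRP1, a co-receptor for VEGF and PDGF ligands, fell by 0.65 with siL2 (adjusted p = 3.51e-07) and by 0.17 with siL1 (adjusted p = 0.0111), the siL1 call ending without siControl replicate 1 (0.0653) or siL1 replicate 1 (0.109).

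PLAT and PLAU, proteases that cut latent ligands, were named for this role after their values were seen. Of the other proteases tested in the same list, FURIN, PCSK6, PCSK7 and ST14 passed with neither siRNA against siControl. PCSK5 rose with siL1 (log2 fold change 0.83, adjusted p = 0.00735) and did not pass with siL2 (adjusted p = 0.532). PLAT, tissue plasminogen activator, which activates PDGF-CC, rose by 1.04 with siL1 (adjusted p = 1.09e-07) and by 0.24 with siL2 (adjusted p = 0.0152), the second ending without siControl replicate 1 (0.12) or siL2 replicate 2 (0.0961). PLAU, urokinase, which activates PDGF-DD, rose by 0.72 with siL1 (adjusted p = 9.05e-07) and by 0.54 with siL2 (adjusted p = 1.24e-05). SPARC, a matrix protein that binds PDGFs, also chosen after its values were seen, rose by 1.34 with siL1 (adjusted p = 3.05e-06) and by 0.74 with siL2 (adjusted p = 0.000666). PLG, plasminogen, had 0 counts in all libraries.

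Proximal signalling genes, whose products dock on the activated receptors, moved in both directions. Of 24 tested, 6 rose and 4 fell with siL1, and 6 rose and 5 fell with siL2. That was 41.7% with siL1 and 45.8% with siL2, beside 50.4% and 45.8% of all genes. SHC1, the adaptor that links receptors to RAS, averaged 318 ± 0.0292 CPM with siL1, 260 ± 4.39 CPM with siL2 and 146 ± 5.33 CPM in siControl (SD, n = 2 each), and rose by 1.13 with siL1 (adjusted p = 9.2e-10) and by 0.83 with siL2 (adjusted p = 7.88e-09). PIK3R2, a regulatory subunit of PI3-kinase, fell by 0.97 with siL1 (adjusted p = 8.49e-08) and by 0.21 with siL2 (adjusted p = 0.0111), the second ending without siControl replicate 1 (0.0822). STAT5B, a transcription factor activated by receptor kinases, fell by 0.58 with siL2 (adjusted p = 4.22e-05) and had -0.17 with siL1 (adjusted p = 0.0715), which passed with no filter on low counts (0.0213) and without siL1 replicate 1 (0.0113).

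In the RAS-MAPK and PI3K-AKT core, 5 of 19 genes rose and 3 fell with siL1, and 3 rose and 6 fell with siL2. That was 42.1% with siL1 and 47.4% with siL2, beside 50.4% and 45.8% of all genes. The kinase AKT1 rose by 0.67 with siL1 (adjusted p = 2.36e-08) and by 0.45 with siL2 (adjusted p = 8.35e-07). MAP2K2, a kinase that activates ERK, fell to 47.7 ± 3.62 CPM with siL2, against 107 ± 0.0112 CPM in siControl (SD, n = 2 each). The log2 fold change of MAP2K2 was -1.16 with siL2 (adjusted p = 5.93e-09) and -0.09 with siL1 (adjusted p = 0.163). MAP2K1, which also activates ERK, had -0.11 with siL1 (adjusted p = 0.0589) and 0.04 with siL2 (adjusted p = 0.471). The ribosomal S6 kinase RPS6KB1 fell by 0.34 with siL1 (adjusted p = 0.000134) and by 0.29 with siL2 (adjusted p = 0.000423).

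Of 18 genes of receptor down-regulation and feedback, 8 rose and 3 fell with siL1, and 5 rose and 4 fell with siL2. That was 61.1% with siL1 and 50% with siL2, beside 50.4% and 45.8% of all genes. PTPRJ, a receptor phosphatase that acts on PDGFRB, rose by 0.82 with siL1 (adjusted p = 3.48e-06) and by 0.60 with siL2 (adjusted p = 6.16e-05). PTPN2, a phosphatase that also acts on PDGFRB, fell by 0.37 with siL1 (adjusted p = 0.000706) and by 0.48 with siL2 (adjusted p = 9.35e-05). Of 17 growth factor immediate early genes, 7 rose and 2 fell with siL1, and 3 rose and 4 fell with siL2. Here 52.9% passed with siL1 and 41.2% with siL2, beside the same shares of all genes. CTGF, a secreted matrix-associated factor, rose by 0.94 with siL1 (adjusted p = 2.04e-09) and had 0.04 with siL2 (adjusted p = 0.445). IER3, an early response gene, rose by 0.57 with siL1 (adjusted p = 5.1e-05) and by 0.84 with siL2 (adjusted p = 1.99e-06). The serum response factor SRF fell by 0.71 with siL1 (adjusted p = 7.59e-08) and by 0.54 with siL2 (adjusted p = 7.66e-07). The growth regulator MYC fell by 0.44 with siL1 (adjusted p = 6.1e-05) and by 0.70 with siL2 (adjusted p = 1.32e-06).

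**Figure D5:**
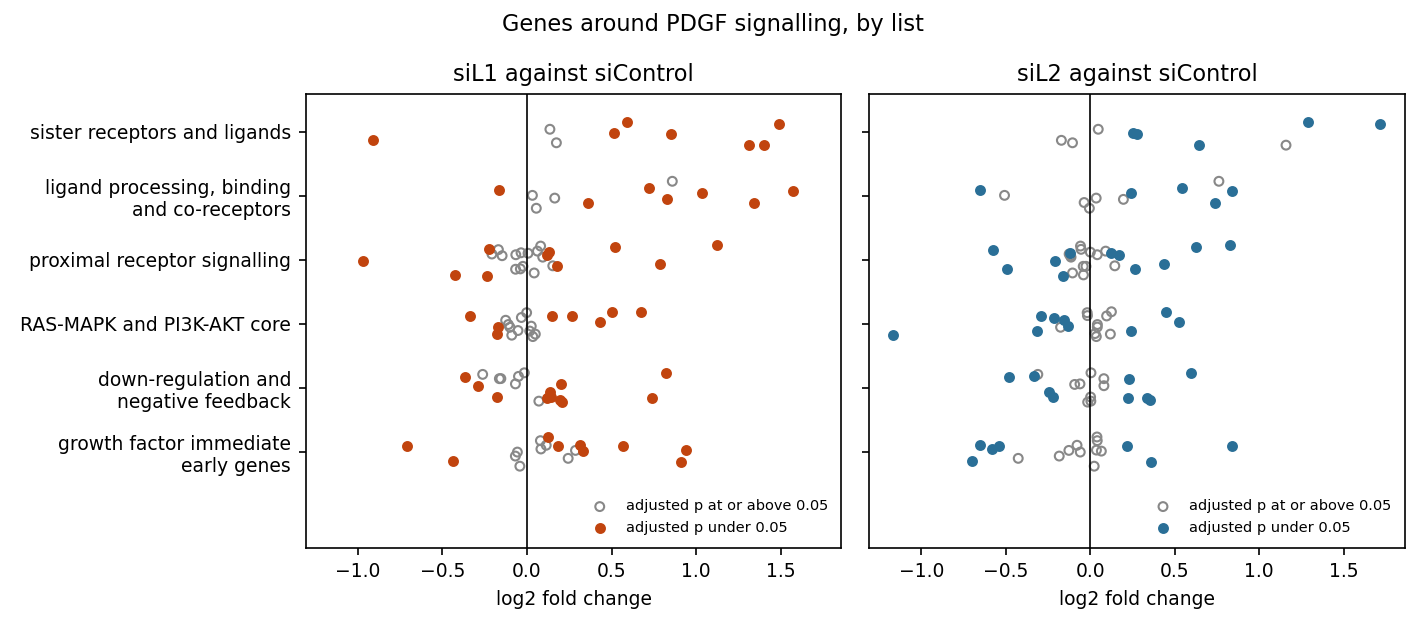
Log2 fold change over siControl (horizontal axes) of the 98 tested genes around PDGF signalling, with siL1 on the left and siL2 on the right, by list (rows). Filled points passed an adjusted p of 0.05 and open ones did not, and the vertical spread within a row is only for legibility. Of the 9 sister receptors and ligands, 6 passed upwards with siL1 and 5 with siL2, beside 24.7% and 22.6% of all genes. Among these, CSF1R with siL1 and PGF with both siRNAs had low counts.

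The genes most like PDGFRB over the 6 libraries were found by the root mean square distance between log2 CPM values centred on the siControl mean (prior count 2). They were TMEM64 (distance 0.251, Pearson r 0.98), GPR17 (0.267, r 0.99), LOC100507600 (0.317, r 0.98), COL6A3 (0.327, r 0.98) and LSP1 (0.344, r 0.97). TMEM64 averaged 111 CPM with siL1, 85.4 CPM with siL2 and 18.1 CPM in siControl, and GPR17 averaged 20.6 CPM with siL1, 14.1 CPM with siL2 and 3.45 CPM in siControl. COL6A3, a collagen VI chain, had 14 and 12 counts with siL1, 9 and 6 with siL2, and 0 and 1 in siControl. LSP1 had 12 and 17 counts with siL1, 5 and 3 with siL2, and 0 in both siControl libraries. The libraries share their groups, and the prior count draws the low genes together, so these values only describe the pattern.

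Because PDGFRB marks pericytes and fibroblasts, markers of other cell types are given beside it. Of 12 pericyte and smooth muscle markers 9 were tested, and 5 rose and 0 fell with siL1 and 3 rose and 0 fell with siL2, where 24.7% of all genes passed upwards with siL1 and 22.6% with siL2. Their summed level was 95.5 to 99.4 CPM with siL1, 63.6 to 68.9 CPM with siL2 and 51.1 to 57.4 CPM in siControl. MCAM alone averaged 59.8 CPM with siL1, 34.0 CPM with siL2 and 23.8 CPM in siControl. MCAM and CSPG4 rose with both siRNAs, NOTCH3, KCNJ8 and CNN1 with siL1 only, and RGS5 with siL2 only. ACTA2, MYH11 and TAGLN passed with neither siRNA, and ABCC9, DES and ANPEP did not pass the filter on low counts. Of 8 fibroblast markers 2 were tested, 1 of which rose with either siRNA, and the sum was 12.7 to 12.9 CPM with siL1, 8.60 to 9.94 CPM with siL2 and 6.14 to 6.85 CPM in siControl. The fibroblast markers COL1A2, DCN, LUM and PDPN had 0 counts in all 6 libraries. Of 6 endothelial markers 3 were tested, with 2 higher with siL1 and 1 with siL2, and their sum was 224 to 231 CPM with siL1, 209 to 214 CPM with siL2 and 191 to 192 CPM in siControl. TIE1 alone averaged 226 CPM with siL1, 210.4 CPM with siL2 and 191 CPM in siControl, so it made up nearly all of that sum. Of 8 blood cell markers 1 was tested, and it rose with siL2. The part of these markers in the PDGFRB values was not tested.

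The line's own markers VIM, CD44, EGFR, AXL and CAV1 summed to 6729 to 6770 CPM with siL1, 7353 to 7390 CPM with siL2 and 6790 to 6971 CPM in siControl, with VIM the most abundant. Of these 5, 1 rose and 3 fell with siL1, and 2 rose and 1 fell with siL2. Among all genes, 24.7% rose and 25.7% fell with siL1, and 22.6% rose and 23.3% fell with siL2. AXL rose with both siRNAs and CAV1 with siL2, while VIM, CD44 and CAV1 fell with siL1 and EGFR with siL2. Of 7 genes of luminal breast cells, ESR1, PGR and CDH1 were below 1 CPM in every library. The other 4 were above 1 CPM, at siControl means of 57.0 CPM for ERBB2, 11.5 CPM for EPCAM, 5.35 CPM for FOXA1 and 2.68 CPM for GATA3. Of the 4, 1 rose and 1 fell with siL1, and 1 rose and 2 fell with siL2. GATA3 rose and FOXA1 fell with both siRNAs, and ERBB2 fell with siL2.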

How the data were processed

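RNA-seq was run on 6 libraries of MDA-MB231 cells, 2 each of siL1, siL2 and siControl, grouped by the sample titles. The authors deposited 1 table of whole-number read counts per gene symbol for each library, with a linear fold change (ratio) and an adjusted p-value per siRNA. Per the submitters' processing notes, TopHat 1.3.3, HTSeq, DESeq and hg19 were used; their settings, the annotation and the strand setting are not given in the sources used here. Without strand, reads from overlapping genes cannot be told apart, which concerns PDGFRL and, through antisense genes, PDGFB, PDGFC and PDGFD. PDGFD also overlaps the protein-coding gene DDI1 on the opposite strand. PDGFRA overlaps the protein-coding gene AC058822.1 on its own strand, where strand does not separate reads. The deposited p-values were not used, and of the deposited fold changes those of PDGFRB are given once.

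Libraries held 22047738 to 26765079 counts. Counts were scaled by the trimmed mean of M-values, filtered by group with filterByExpr and fitted with edgeR 4.0.16 (quasi-likelihood test, R 4.3.3) over all 6 libraries, with Benjamini-Hochberg adjustment over 13322 genes and a threshold of 0.05. Standard errors were the absolute log2 fold change divided by the square root of F. CPM is the count scaled to a library total of 1000000, and RPKM divides it by the merged exon length of GENCODE 29 (GRCh38), joined by symbol, since the counts were made on hg19. Promoters came from RefSeq (GRCh38.p14), in which 4 of the 7 members were matched. The fit was tested on simulated data. Alternatives were other scalings, filters, limma-voom (limma 3.58.1), DESeq2 1.42.0, a replicate block, the libraries of each comparison alone, and leaving out each library. Intervals and the floor of 3 counts cover counting error only.

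The members and gene lists were chosen with earlier results of these data known. Named genes were KDM1A, the members, the largest riser and faller past the threshold in each list and siRNA comparison with a mean of at least 5 CPM, the genomic neighbours of the members, and the 5 genes most like PDGFRB. A gene that this rule names is not reported here.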

Additional observations from a re-analysis of the deposited data

Results flagged for a closer look

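siL1 and siL2 both target LSD1, and the difference between their effects passed edgeR's quasi-likelihood test for the genes below, each given as the log2 difference of siL2 minus siL1 with both siL2 libraries on the same side of both siL1 libraries unless stated. Among all genes, 46.8% passed in this comparison. The targeted gene KDM1A was itself lower with siL2, by a log2 difference of -0.66.

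Of the PDGF genes, PDGFC was higher with siL2 by 0.37, and PDGFA (-0.61), PDGFB (-0.76), PDGFD (-0.74) and PDGFRL (-1.31) were lower. The choice of these genes had used the siL1 libraries, so these differences are not independent of it.

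Among genes that process or bind the ligands or belong to sister families, the difference was -0.80 for PLAT, -0.18 for PLAU, -0.60 for SPARC, -0.74 for LRP1, -0.49 for NRP1, -0.57 for VEGFA, 0.69 for CSF1 and 0.74 for KITLG. That of PLAU ended without siL1 replicate 2 (adjusted p = 0.233) or siL2 replicate 1 (adjusted p = 0.195).

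Among signalling and response genes it was -0.30 for SHC1, 0.76 for PIK3R2, -0.41 for STAT5B, -0.22 for AKT1, -1.07 for MAP2K2, -0.23 for PTPRJ, -0.91 for CTGF, 0.27 for IER3, -0.26 for MYC and 0.17 for SRF. Those of PTPRJ, IER3 and SRF ended when single libraries were left out, at adjusted p up to 0.185 for PTPRJ without siL1 replicate 1, 0.0855 for IER3 without siL1 replicate 1 and 0.0972 for SRF without siL1 replicate 2.

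Among genomic neighbours it was -0.59 for PRKAR1B, -0.13 for RPL3, 0.95 for CBX7, -0.47 for CASP4 and -0.52 for SLC7A2. That of RPL3 ended without siL2 replicate 1 (adjusted p = 0.0653).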

How the results depend on the processing

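With 2 libraries per group, each library carries much of a result, and the counts of PDGFRB in siControl and of PDGFRL limit their precision. Over 1704 alternative values, 11 changed direction, all of them log2 fold changes that passed neither as reported nor under the alternative. With a library left out, siL2 against siControl ranged from -0.249 to 0.118 for PDGFB, from -0.0523 to 0.00914 for PDGFA and from -0.125 to 0.0671 for DYNC2H1, the positive values arising without siControl replicate 1 and, for PDGFB, also without siL2 replicate 2. In siL1 against siControl, GLRB ranged from -0.0680 to 0.0264 (0.00593 with upper quartile scaling), CTSO from -0.136 to 0.274 and CASP4 from -0.0174 to 0.0423, the turned signs arising without siL1 replicate 1, for GLRB also without siControl replicate 2 and for CTSO also without siControl replicate 1. CSF1R in siL2 against siL1 ranged from -0.787 to 0.178, positive without siL2 replicate 1. Of the values for single genes, 1446 kept their side of the threshold or their size, 32 lost the call, 14 gained one and 5 moved by more than 1 SD between replicates. The number of PDGF genes lower in siL2 against siControl, 1 in the result as reported, was 0 with DESeq2 and 0 to 1 when a library was left out, the 0 arising without siControl replicate 1 or siL2 replicate 1. The number of pathway genes higher in siL2 against siL1, 20 as reported, was 13 without siL1 replicate 1 and ranged from 13 to 20 over the libraries left out. Same-numbered libraries deviated together by r = 0.14 (siL1 and siControl), 0.20 (siL2 and siControl) and 0.13 (siL2 and siL1) across genes, and the labels do not tie the numbers to a shared batch. With the replicate number as a block, 43 pathway genes rose and 21 fell with siL1 (38 and 14 without the block), 32 rose and 26 fell with siL2 (26 and 20), and 22 were higher and 46 lower in siL2 against siL1 (20 and 42). With the block, STAT5B (adjusted p = 0.000607) and MAP2K2 (0.0417) gained a call in siL1 against siControl, KITLG (0.041) and CSF1R (0.0484) in siL2 against siControl, and DYNC2H1 (0.0058) in siL2 against siL1. The block left the PDGF gene counts at 1 higher and 1 lower in siL2 against siControl, and at 1 higher and 4 lower in siL2 against siL1. The cause of these movements was not tested.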
